A study of Homo sapiens with 12 samples.

Results

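The ERBB family of growth factor receptors and its ligands was followed by the probes of 10 genes: the receptors EGFR, ERBB2, ERBB3 and ERBB4, and the ligands AREG, EREG, TGFA, HBEGF, BTC and NRG1. The genes were chosen by symbol, and every probe annotated to one of them was kept. That gave 23 probes for 9 of the 10 genes, out of 30113 probes for 20046 named genes in the whole value table. No named probe matched AREG, the ligand amphiregulin, which is not analysed here.

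The RNA came from cells labelled C4-2B/Rx2dox (also C4-2B/181), a prostate cancer line in which doxycycline switches on RUNX2, a transcription factor of bone formation. All 12 cultures were first held for 48 h in medium low in steroids, without phenol red and with serum (5%) stripped on charcoal. They then received, for 48 h, the androgen dihydrotestosterone with doxycycline (DHT + dox), doxycycline (dox), dihydrotestosterone (DHT) or ethanol (vehicle), with 3 cultures each, described as biological triplicates. The labels give DHT as 10 mM and dox as 250 µg/ml, units that were not resolved here, and dox without the inducible gene was not among the groups, so RUNX2 and the drug itself cannot be told apart. Each culture was measured on a single-colour Illumina bead array, whose values are linear intensities with background still in them.

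Several checks of the labels bear on every value below. The brighter of the RUNX2 probes, ILMN_1716651, read 331.1, 258.6 and 321.9 on the DHT + dox arrays, 293.1, 271.7 and 244.6 on the dox arrays, 313.0, 273.9 and 270.9 on the DHT arrays and 210.3, 206.8 and 225.8 on the vehicle arrays. The dox arrays and the DHT arrays, without dox, each lay above the vehicle arrays, and the DHT + dox arrays overlapped the DHT arrays. The dimmer RUNX2 probe, ILMN_2377746, read 144.1 to 181.3, and its dox arrays overlapped their controls in both settings. Whether either probe sees the induced transcript is not known. KLK3, the prostate-specific antigen gene, was above the background limit on 1 of 12 arrays, while ESR1, the estrogen receptor, read 2157.4 to 4711.4. Prostate luminal markers passed the limit on every array for 5 of 16 genes with a probe, and breast luminal markers for 10 of 14. Of all named probes, counted by probe and not by gene, 41.6% passed it on every array. By this count the markers go against the prostate label, but the identity of the cells was not tested. Of 7 prostate markers in the test described below, DHT against vehicle raised 2 and did not call 5. The 2 were TMPRSS2, averaging 1255.2 in DHT and 704 in vehicle cultures, and SLC45A3 (364.9 and 270.5). Endothelial markers were above the limit on no array for 7 of 8 genes, and 0 of 10 fibroblast markers were above it on all arrays.

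ERBB receptors are tyrosine kinases of the cell surface that pair up when a ligand binds, and then switch on the RAS-ERK and PI3K-AKT pathways. ERBB2 has no known ligand of its own and acts as the favoured partner of the others. ERBB3 has a weak kinase and serves mainly to recruit PI3K, with neuregulins such as NRG1 as its ligands. TGFA, EREG, HBEGF, BTC and AREG bind EGFR, and are made as membrane-bound precursors that ADAM proteases cut free. In breast and prostate epithelium the family is known for driving growth, and ERBB2 for its amplification in breast cancer.

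A probe counted as above background when it passed 147.5 intensity units, the 95th percentile of probes for gene families with little expression outside their own tissues. Of the 23 probes, 8 passed the limit on all 12 arrays and 9 on none. EGFR, ERBB2, ERBB3, TGFA and HBEGF each had a probe above it on all arrays. EREG and BTC passed it on 6 arrays each, and the single ERBB4 probe on none, with values of 108.1 to 134.0. The 7 NRG1 probes passed it on at most 2 arrays each and ranged from 94.5 to 167.7 in all. ERBB4 and NRG1 therefore did not enter the test, which covered 12122 genes by their brightest probe, among them 7 of the ERBB genes. Of these 7, 5 had means above the limit in every group, while EREG and BTC had them in the dox and DHT + dox groups only and so entered the test through the groups where they were higher.

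Dox moved 3 of these 7 genes: TGFA rose, and ERBB2 and ERBB3 fell. In the limma fit with Benjamini-Hochberg adjustment over all genes, dox against vehicle called 16.1% of all genes higher and 16.7% lower (32.8% in all), against 1 higher and 2 lower among the 7. On top of DHT, 2 rose (TGFA and, near the limit, BTC) and 2 fell (ERBB2 and ERBB3), where 14.3% of all genes were called higher and 19.2% lower (33.5% in all). DHT + dox against vehicle called TGFA higher and ERBB2 and ERBB3 lower, where 16.6% of all genes were called higher and 20.2% lower (36.8% in all). The median log2 change of the 7 was 0.092 for dox and -0.063 for dox on top of DHT, against -0.0062 and -0.016 over all genes. The plot of log2 differences shows the changes for each gene.

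**Figure D1:**
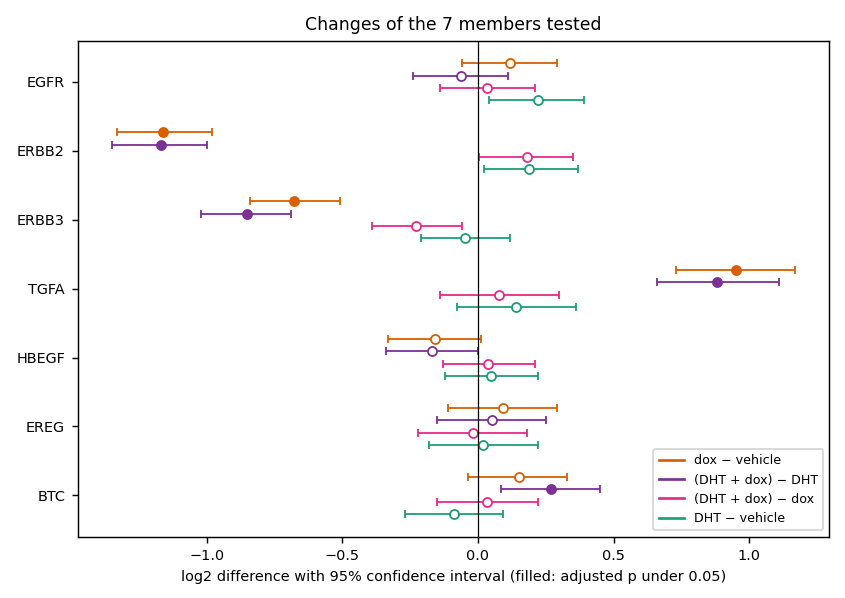
Log2 difference (x axis) with its 95% confidence interval for the 7 genes tested, in dox minus vehicle, DHT + dox minus DHT, DHT + dox minus dox, and DHT minus vehicle. Filled points passed an adjusted p of 0.05: ERBB2, ERBB3 and TGFA under both dox comparisons, and BTC only for dox on top of DHT.

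ERBB2 showed the steepest fall among the family. Its probe ILMN_2352131 read 878.0, 1018.4 and 876.2 on the DHT + dox arrays and 756.0, 810.4 and 882.5 on the dox arrays. The DHT arrays read 1934.4, 2138.3 and 2175.8, and the vehicle arrays 1781.1, 1966.9 and 1713.7. Every array with dox lay below every array without it. In bulk RNA of this kind, fewer cells with the transcript and less of it per cell cannot be told apart. Dox lowered ERBB2 2.23-fold against vehicle, with a log2 change of -1.16 ± 0.083 (SE, n = 3 each, limma adjusted p = 7.54e-10). On top of DHT the log2 change was -1.17 ± 0.083 (limma adjusted p = 5.07e-10), a 2.26-fold fall. The interaction of DHT and dox was -0.016 on the log2 scale, with a 95% interval of -0.26 to 0.23, so a difference within those limits could not be detected. Of the other ERBB2 probes, ILMN_1717902 read 117.1 to 147.3 and ILMN_1728761 104.1 to 126.0, both at background on all arrays, so the fall rests on a single probe.

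The window at the annotated start of ERBB2 is shown because PGAP3 starts beside it, head to head. PGAP3, a gene for remodelling of lipid anchors, also fell. Which ERBB2 transcripts start in this window, and whether the probe that fell sees them, is not known here. In the RefSeq window, chr17:39687844-39688143 on the plus strand of GRCh38.p14, the start of PGAP3 on the minus strand lies upstream of that of ERBB2, with 36 bases between them. The 38 bases in capitals run from one start to the other, both included.
ERBB2 promoter: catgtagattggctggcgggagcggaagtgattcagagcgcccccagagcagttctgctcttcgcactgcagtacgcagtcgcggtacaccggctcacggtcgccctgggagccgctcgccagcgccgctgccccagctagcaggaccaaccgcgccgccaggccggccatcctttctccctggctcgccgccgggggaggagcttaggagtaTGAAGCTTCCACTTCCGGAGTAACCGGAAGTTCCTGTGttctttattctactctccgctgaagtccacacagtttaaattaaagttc

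The window was searched on both strands for 6 motifs. These were the full palindromic estrogen response element, its core GGTCA (which the full element contains), the full palindromic androgen response element, the RUNX motif TGTGGT, the AP-2 motif GCCNNNGGC and the cyclic AMP element TGACGTCA. None of the 6 was found in it. Over all 35116 RefSeq promoter windows of 300 bases, GGTCA occurred in 37.4%, GCCNNNGGC in 23.2%, TGTGGT in 13.1% and TGACGTCA in 1.85%, while the full estrogen and androgen elements occurred in 0.057% and 0.00285%. The absence of a match says only that these letters are not in this window.

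Genes beside ERBB2 on chromosome 17 moved unequally. Of 10 neighbours tested, dox lowered 4 and raised 1 (CDK12) against vehicle, and lowered 5 on top of DHT. Over all genes, 16.7% were called lower and 16.1% higher against vehicle, and 19.2% lower and 14.3% higher on top of DHT. The median log2 changes of the 10 were -0.076 and -0.24. GRB7, an adaptor that binds ERBB2 and whose gene lies next but one to it, averaged 175.4 in DHT + dox and 323.4 in DHT cultures, and 160.1 in dox and 265.6 in vehicle cultures. It fell by 0.88 and 0.73 on the log2 scale (limma adjusted p = 1.88e-05 and 0.000144). PGAP3 fell by 0.42 with dox alone (limma adjusted p = 0.00177) and by 0.28 on top of DHT (0.0264). The sphingolipid regulator ORMDL3 fell by 0.48 and 0.29, and GSDMB, a pore-forming protein gene, by 0.30 in each. MIEN1, between ERBB2 and GRB7, did not pass the test in either comparison (-0.053 and -0.17), nor did the cholesterol carrier STARD3 for dox alone (-0.0075), although STARD3 passed on top of DHT (-0.27, adjusted p = 0.0483). MIEN1 lay close to the background limit, with group means of 164.7 to 195.0. So did GSDMB (169.1 to 216.1), STARD3 (174.9 to 211.8) and, in the dox groups, GRB7. Background holds back the changes of such probes, so their sizes are not strictly comparable. DHT on top of dox called 1 of the 10 neighbours, where 4.27% of all genes were called. This was ORMDL3, which rose by 0.42 (limma adjusted p = 0.0205). DHT against vehicle called 0 of the 10, where 7.6% of all genes were called.

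**Figure D2:**
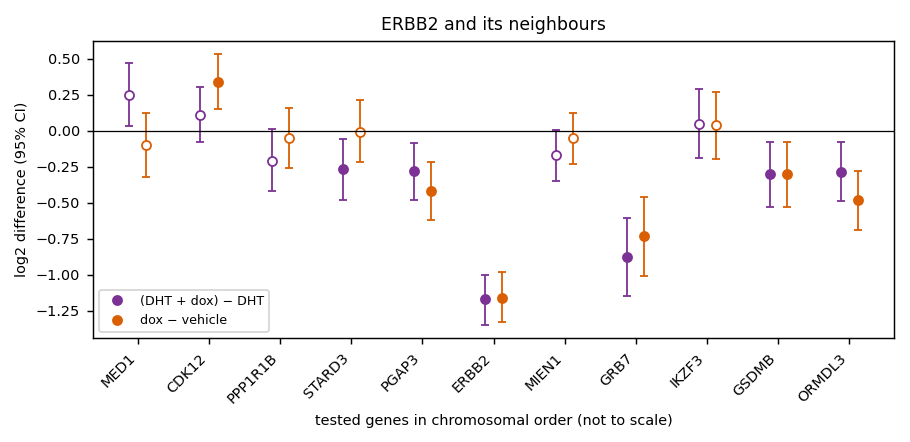
Log2 difference with its 95% confidence interval (y axis) for ERBB2 and its tested neighbours in their order along chromosome 17 (x axis, not to scale), in DHT + dox minus DHT and dox minus vehicle; filled points passed an adjusted p of 0.05. ERBB2 lies lowest at -1.17 and -1.16, and GRB7 is the next lowest at -0.88 and -0.73.

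ERBB3, the receptor that recruits PI3K, fell less steeply. Probe ILMN_1751346 read 2667.5, 2267.8 and 2410.2 on the DHT + dox arrays and 2869.0, 3069.6 and 2646.9 on the dox arrays. It read 3951.6, 4695.6 and 4633.1 on the DHT arrays and 4754.5, 4361.5 and 4587.0 on the vehicle arrays. The arrays with dox all lay below those without it. The log2 change was -0.68 ± 0.08 for dox against vehicle (SE, n = 3 each, limma adjusted p = 1e-06), a 1.6-fold fall. On top of DHT it was -0.85 ± 0.08 (limma adjusted p = 3.65e-08), a 1.81-fold fall. The interaction was -0.18, with a 95% interval of -0.41 to 0.058 and an adjusted p of 0.633, so the larger fall on top of DHT is not shown to differ.

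The ERBB3 probes did not move alike. ILMN_1751346 is annotated to transcript NM_001982, and the dimmer ILMN_1737993 and ILMN_2397602 to NM_001005915, an mRNA for a shorter form of the receptor. ILMN_1737993 averaged 334.5 in DHT + dox, 321.9 in dox, 390.6 in DHT and 359.4 in vehicle cultures. Neither dimmer probe passed the test: in the fit over all probes, ILMN_1737993 gave -0.15 with dox alone and -0.22 on top of DHT (limma adjusted p = 0.247 and 0.0844), and ILMN_2397602 gave -0.10 and 0.022. Within each array, the bright probe minus ILMN_1737993 came to 2.77 to 3.19 on the 6 dox arrays and 3.27 to 3.88 on the 6 others, a change of -0.58 in the difference, a comparison made after the values were seen. For ILMN_2397602 the change was -0.72. An exact permutation test of the dox label within each DHT setting gave p = 0.005 for each, the smallest it can give, and 0.0075 after adjustment over 3 such tests (two-sided). The test used values with background in them, which holds back the changes of dim probes. The difference therefore shifts when the bright probe falls, even if all transcripts fall equally, so the p does not show a split between transcripts. After background was removed, the log2 changes were -0.70 and -0.88 for ILMN_1751346, -0.22 and -0.31 for ILMN_1737993, and -0.23 and 0.032 for ILMN_2397602. The difference between probes was not tested on those values. With the mean of the ERBB3 probes in place of the brightest, the fall was -0.31 (adjusted p = 0.0022) and -0.35 (0.000783). Which exons the probes cover is not known here.

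TGFA, transforming growth factor alpha, was the ligand that rose clearly. Probe ILMN_2083946 read 584.5, 512.2 and 501.4 on the DHT + dox arrays and 523.0, 434.5 and 560.0 on the dox arrays. The DHT arrays read 280.8, 331.8 and 256.2, and the vehicle arrays 279.1, 253.8 and 250.4. All 6 arrays with dox lay above all 6 without it. The log2 change was 0.95 ± 0.11 for dox against vehicle (SE, n = 3 each, limma adjusted p = 5.1e-07), a 1.93-fold rise. On top of DHT it was 0.88 ± 0.11 (limma adjusted p = 1.31e-06), a 1.85-fold rise, and the interaction was -0.063 with a 95% interval of -0.38 to 0.25.

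The TGFA probe annotated to NM_001099691 gave the same separation. ILMN_1805175 read 404.4, 448.3 and 369.0 on the DHT + dox arrays, 429.0, 427.6 and 413.4 on the dox arrays, 251.1, 251.6 and 267.2 on the DHT arrays and 246.1, 225.6 and 225.4 on the vehicle arrays. Its log2 changes were 0.87 with dox alone (limma adjusted p = 1.14e-07) and 0.66 on top of DHT (4.48e-06). The difference between the TGFA probes within an array changed by 0.15, with an exact permutation p of 0.16 (two-sided, adjusted p = 0.16), so a split like that of ERBB3 was not seen, and one of this size could not be told from the array spread.

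**Figure D3:**
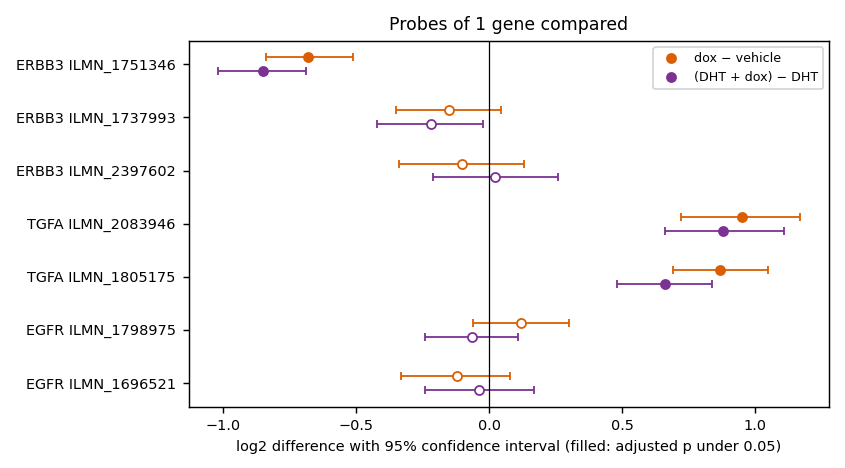
Log2 difference (x axis) with its 95% confidence interval for the ERBB3, TGFA and EGFR probes with a group mean above the background limit (rows), in dox minus vehicle and DHT + dox minus DHT, from the fit over all probes; filled points passed an adjusted p of 0.05. ILMN_1751346 of ERBB3 lies at -0.68 and -0.85 while the other ERBB3 probes lie nearer 0, and both TGFA probes lie between 0.66 and 0.95.

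The TGFA promoter is shown as that of the ligand with the largest rise. Of its windows in RefSeq, chr2:70553777-70554076 (minus strand, GRCh38.p14) is 75.3% G and C, against a median of 58.7% over all windows. It holds the core GGTCA 190 bases before the start and an AP-2 match, GCCGGGGGC, 61 bases before it, both in capitals. The other TGFA window, chr2:70553397-70553696 on the same strand, held none of the 6 motifs.
TGFA promoter: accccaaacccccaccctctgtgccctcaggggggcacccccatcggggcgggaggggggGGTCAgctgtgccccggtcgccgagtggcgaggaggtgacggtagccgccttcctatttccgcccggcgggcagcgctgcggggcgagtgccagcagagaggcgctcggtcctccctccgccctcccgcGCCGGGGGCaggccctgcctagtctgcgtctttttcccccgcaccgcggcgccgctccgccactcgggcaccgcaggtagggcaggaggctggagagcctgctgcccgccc

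Windows of 8 of the 10 genes were searched, and those of ERBB3 and NRG1 were not. None of the windows searched holds a RUNX motif or a full steroid response element. AREG had the cyclic AMP element, EGFR had 3 AP-2 matches in a window at chr7:55018767-55019066, HBEGF 2 copies of GGTCA, and EREG and ERBB4 1 copy each. A match is a string of letters and not a bound site.

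**Figure D4:**
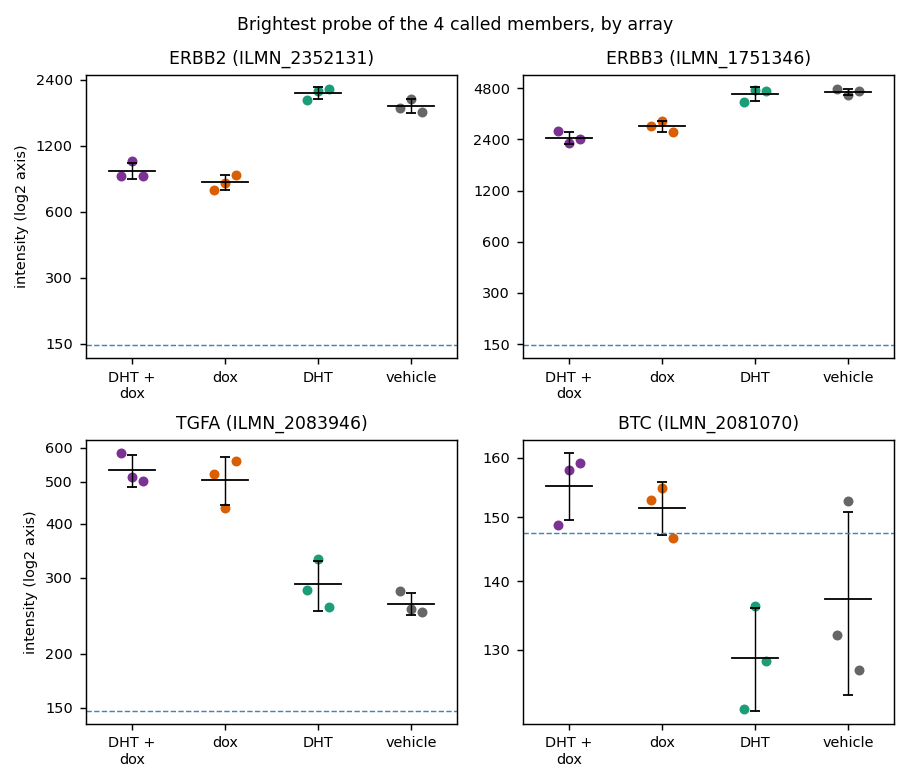
Intensity by array (points, log2 axis) of the brightest probe of ERBB2, ERBB3, TGFA and BTC in DHT + dox, dox, DHT and vehicle cultures; bars are the mean ± SD of 3 arrays, and the dashed line is the background limit of 147.5. ERBB2 and ERBB3 are lower and TGFA is higher in both dox groups without overlap, and BTC lies near the limit.

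BTC, betacellulin, a ligand of EGFR and ERBB4, sat at the edge of detection. Its probe ILMN_2081070 read 148.8, 157.8 and 159.1 on the DHT + dox arrays and 152.9, 154.9 and 146.7 on the dox arrays. It read 122.0, 136.3 and 128.4 on the DHT arrays, none of them above the limit, and 132.1, 152.7 and 127.2 on the vehicle arrays. The DHT + dox arrays lay above all DHT arrays, while the dox and vehicle arrays overlapped. Against DHT, DHT + dox gave a log2 change of 0.27 ± 0.088 (SE, n = 3 each, limma adjusted p = 0.0216). BTC entered this test through the groups with dox. With no filter and all 20046 named genes tested, the change was 0.27 with an adjusted p of 0.032. Since DHT cultures had only a bound, the level was at least 1.05-fold higher, taking for each DHT array the limit wherever the probe fell under it. The call was lost without DHT replicate 1 or 3 or DHT + dox replicate 2 or 3, with adjusted p between 0.0533 and 0.0894, and with the stricter background limit the gene was not tested. For dox against vehicle the log2 change was 0.15 (adjusted p = 0.221). With background removed, the change on top of DHT was 0.64.

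HBEGF, heparin-binding EGF-like growth factor, was low on all arrays. ILMN_2121408 read 175.1, 160.5 and 160.5 on the DHT + dox arrays and 161.1, 165.7 and 156.9 on the dox arrays, against 178.0, 185.7 and 194.8 on the DHT arrays and 171.9, 183.2 and 184.7 on the vehicle arrays. Each dox group lay below its own control without overlap, but neither comparison passed the test, with log2 changes of -0.16 (adjusted p = 0.15) and -0.17 (adjusted p = 0.116). With background removed the changes were -0.40 and -0.43 (adjusted p = 0.104 and 0.0853). Averaged over both DHT settings, a contrast added after the values were seen, it was -0.16 ± 0.058 (SE, n = 6 each, limma adjusted p = 0.0246), where 20.6% of all genes were called higher and 24.4% lower (45.1% in all).

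EGFR itself did not pass any test. ILMN_1798975 read 169.3, 181.4 and 182.6 on the DHT + dox arrays and 187.4, 165.9 and 167.9 on the dox arrays, and 182.0, 194.9 and 180.3 on the DHT arrays against 152.9, 158.9 and 168.0 on the vehicle arrays. The DHT arrays lay above the vehicle arrays, with a log2 change of 0.22 ± 0.085 and an adjusted p of 0.129. With background removed the change was 0.55 (adjusted p = 0.0951). For dox against vehicle the change was 0.12 (adjusted p = 0.312; 0.31 and 0.245 with background removed), and on top of DHT -0.063 (0.611). A further probe, ILMN_1696521, passed the limit on 10 arrays, read 140.6 to 182.2 and gave -0.12 and -0.036 in these comparisons. The 2 other EGFR probes stayed below the limit on all arrays. EREG, epiregulin, read 139.2 to 158.3 in DHT + dox, 141.1 to 159.4 in dox, 130.7 to 153.9 in DHT and 126.4 to 156.6 in vehicle cultures, ranges that overlap throughout.

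**Figure D5:**
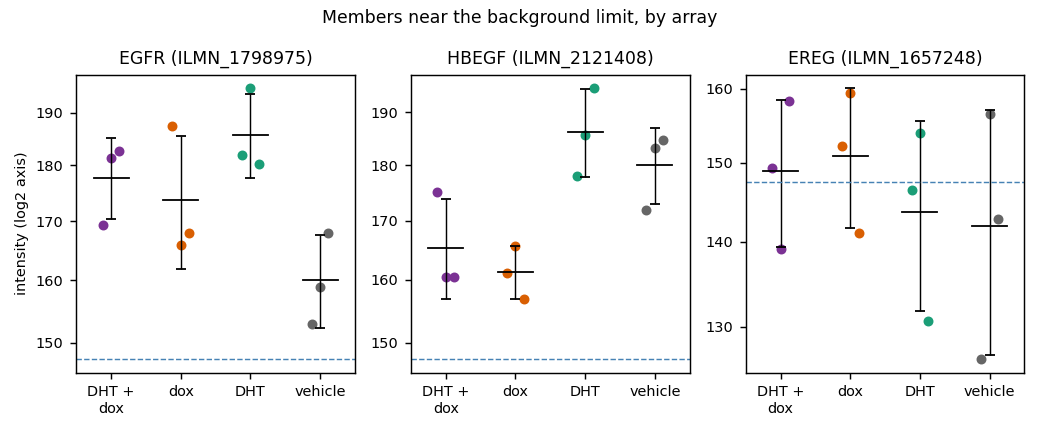
Intensity by array (points, log2 axis) of EGFR, HBEGF and EREG in DHT + dox, dox, DHT and vehicle cultures, with the mean ± SD of 3 arrays and the background limit of 147.5 as a dashed line. All EGFR and HBEGF points lie between 152.9 and 194.9, and the EREG points straddle the limit.

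DHT moved none of the 7 genes past the test, whether against vehicle, where 7.6% of all genes were called (4.5% higher and 3.1% lower), or on top of dox, where 4.27% were (2.04% higher and 2.24% lower). Unadjusted p lay under 0.05 for 2 of the 7 in each comparison. Against vehicle these were EGFR, given above, and ERBB2, with a log2 change of 0.19 ± 0.083 (SE, n = 3 each, limma adjusted p = 0.172). On top of dox, ERBB3 gave -0.23 ± 0.08 (adjusted p = 0.116) and ERBB2 0.18 (0.251). Averaged over both dox settings, again a contrast added after the values were seen, ERBB2 rose 1.14-fold with DHT (log2 0.19 ± 0.059, n = 6 each, limma adjusted p = 0.0398), where 6.88% of all genes were called higher and 6.37% lower (13.2% in all). No interaction was called among the 7, nor had any an unadjusted p under 0.05; 0.289% of all genes were called (0.132% higher and 0.157% lower).

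Of 10 genes of ligand shedding tested, dox lowered 2 and raised 1, with 32.8% of all genes called, and on top of DHT lowered 2, with 33.5% called. ADAM10, a protease that cuts BTC and other precursors, fell by 0.67 with dox alone and by 0.77 on top of DHT (limma adjusted p = 1.4e-05 and 2.38e-06). RHBDF1, the iRhom1 gene, a cofactor of ADAM17, fell by 0.59 and 0.75 (2.46e-07 and 5.77e-09). ADAM15 rose by 0.32 with dox alone and by 0.28 with DHT alone, which called 7.6% of all genes. The median of the 10 was -0.049 for dox. Of 4 further ligands, 1 entered the test and was not called.

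Of 14 inhibitors and turnover factors, 2 rose and 2 fell with dox, and 1 rose and 4 fell on top of DHT, near the 32.8% and 33.5% of all genes called. LRIG1, which promotes loss of ERBB receptors, rose by 0.60 and 0.53 (adjusted p = 1.08e-05 and 5.01e-05), and the ubiquitin ligase CBLB fell by 0.43 and 0.44. USP8, a deubiquitinase that spares receptors from degradation, fell by 0.29 and 0.23. ERRFI1, an inhibitor of the EGFR kinase, rose by 0.23 with dox alone. On top of DHT the phosphatase PTPN12 fell by 0.44 and SOCS5 by 0.23. With DHT, 1 of the 14 was called, PTPN1, a phosphatase that acts on receptor tyrosine kinases. It rose by 0.52 against vehicle, where 7.6% of all genes were called, and by 0.29 on top of dox, where 4.27% were.

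Of 23 adaptors and enzymes at the receptor, dox raised 3 and lowered 9 (median log2 change -0.18), where 16.1% of all genes were called higher and 16.7% lower. On top of DHT it raised 3 and lowered 6 (median -0.13), where 14.3% of all genes were called higher and 19.2% lower. GRB14, an adaptor that binds receptor kinases, fell by 0.81 with dox alone, and GRB7, given above, by 0.73. MUC1, a mucin that binds ERBB receptors, fell by 0.55 and 0.63, while GAB2, a docking protein upstream of PI3K, rose by 0.58 and 0.70. GAB1, a close relative of GAB2, fell by 0.49 on top of DHT. DHT alone, which lowered 3.1% of all genes, lowered 4 of the 23: GRB14 by 0.60, VAV3 by 0.55, MUC1 by 0.43 and PIK3R1 by 0.29. On top of dox, where 2.24% of all genes were called lower, it lowered MUC1 by 0.51 and VAV3 by 0.34. GRB14 was the member of the list with an interaction, of 0.57 (adjusted p = 0.0124), where 0.289% of all genes were called.

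Of 19 genes that respond to ERK, dox raised 7 and lowered 1 (median log2 change 0.13), where 16.1% of all genes were called higher and 16.7% lower. With DHT present it raised 8 and lowered 4 (median 0.085), where 14.3% of all genes were called higher and 19.2% lower. FOS and ETV4 are among those counted higher and entered the test through groups with dox. SPRY1, a feedback inhibitor, fell by 1.61 in both comparisons (adjusted p = 6.94e-10 and 5.94e-10). MYC rose by 1.39 and 1.17, and the ERK phosphatase DUSP5 by 0.72 and 0.68. FOS, an immediate early gene, averaged 216.9 in DHT + dox and 234.9 in dox cultures, and was above the limit on 0 of 3 DHT and 0 of 3 vehicle arrays. It was at least 1.59-fold higher with dox alone and at least 1.47-fold higher on top of DHT (limma adjusted p = 8.67e-07 and 1.54e-06). DHT alone, which raised 4.5% of all genes, raised 4 of the 19: PHLDA1 by 1.04, DUSP4 by 0.42, MYC by 0.42 and ETV5 by 0.37. On top of dox, where 2.04% of all genes were called higher, it raised PHLDA1 by 0.53 and ETV5 by 0.38. These genes answer many pathways besides the ERBB receptors.

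Transcription factors known to act on ERBB genes moved in both directions. Of 10 tested, 2 rose and 4 fell with dox (median -0.19), where 16.1% of all genes were called higher and 16.7% lower. With DHT present 3 rose and 5 fell, where 14.3% were called higher and 19.2% lower. ETV4, among those that rose with DHT present, entered the test through the DHT + dox group. ELF3, an epithelial ETS factor, fell by 1.16 and 1.27. ESR1, whose activity is known to hold ERBB2 down in breast cancer cells, fell by 0.62 and 0.51 in RNA. Its activity was not measured. GATA3 fell by 0.53 with dox alone. YBX1 rose by 0.61 and 0.48, and FOXA1 fell by 0.38 on top of DHT. DHT alone, which raised 4.5% and lowered 3.1% of all genes, raised ELF3 by 0.33 and lowered ESR1 by 0.32. On top of dox, where 2.04% of all genes were called higher, it raised GATA3 by 0.50. Around AREG and EREG on chromosome 4, 5 genes were tested. On top of DHT, dox called 1 of them, BTC, where 33.5% of all genes were called. BTC entered the test through the groups with dox. With dox alone 0 of the 5 were called, where 32.8% of all genes were, and the other comparisons called none. Breast luminal markers share ESR1 and GATA3 with the list of transcription factors. Of 12 tested, 7 were called higher and 3 lower with dox alone, and 6 and 3 on top of DHT. GREB1 rose by 3.96 and 4.17, TFF1 by 1.19 and 1.63, TFF3 by 1.13 and 1.29, and PGR by 1.49 and 1.34. PGR, counted higher in both, entered the test through the groups with dox. Prostate luminal markers were called higher for 2 and lower for 3 of 7 with dox alone, and for 0 and 2 on top of DHT. TMPRSS2 fell by 1.14 and 1.52, and PMEPA1 by 0.70 and 0.80. KLK4, counted higher with dox alone, entered the test through the dox group. ACP3, counted lower with dox alone, entered through the vehicle and DHT groups, where it averaged 185.9 and 164.6. In dox cultures it averaged 144.1, under the limit. The shares over all genes are those given for the transcription factors. Of 2 basal markers, 1 was higher and 1 lower in both comparisons. Of 3 fibroblast and 3 immune markers, none was called with dox alone, and on top of DHT COL3A1 was lower (-0.26, adjusted p = 0.034) and CD68 higher (0.53, adjusted p = 0.0131). Their part in the ERBB changes was not tested.

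The genes most like each called ERBB gene were taken by Pearson correlation of log2 intensity over the 12 arrays, among all genes tested. The arrays part by dox, a step that all of these genes share. ERBB2 was closest to PPP1R3C, a glycogen-targeting subunit of a phosphatase (r = 0.991), to TP53INP1, a target of p53 (0.989), and to FAM174B (0.989). PPP1R3C averaged 1015.1 in DHT + dox and 2765 in DHT cultures, and 872.9 in dox and 2306.2 in vehicle cultures. ERBB3 was closest to LAMTOR3 (0.994), a scaffold of ERK signalling on endosomes, ATP9A (0.985) and SUSD6 (0.984). TGFA was closest to the mitochondrial ornithine carrier SLC25A15 (0.989), RBM14 (0.982) and FJX1 (0.978). BTC had weaker matches, PCGF1 (0.918), FAM86C2P (0.908) and CTHRC1 (0.90).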

How the data were processed

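RNA from 12 cultures was measured, 3 in each of 4 treatment groups taken from the labels. The authors deposited intensities on a linear scale. The submitters' processing notes name GenomeStudio. Its version and any normalization or background step were not given in the sources used here. Sorted columns matched within 0.8 intensity units (range 84.1 to 27321.9, median 137.6), so no normalization was added. Precision is limited by the number of arrays.

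Of 47230 probes, 30113 carried 1 gene symbol, 8 several and 17109 none in the table of probe genes; 30074 were renamed by gene ID through RefSeq (GRCh38.p14), used for names and promoter windows. Values were floored at 20 (none was lower) before log2. Background was set at 147.5, the 95th percentile of 640 probes for 535 genes of olfactory and similar families. Each gene was tested by its brightest probe among those with a group mean above the limit, giving 12122 genes. A model with 4 group means was fitted with limma 3.58.1 (lmFit, eBayes with trend) in R 4.3.3, and p-values were adjusted by Benjamini-Hochberg over all genes (threshold 0.05). The fit was tested on simulated data. The interaction subtracts the DHT change in the absence of dox from that in its presence. Background was removed, as an alternative, with nec. Plots were drawn with matplotlib 3.10.9, and tables handled with numpy 2.4.6 and pandas 2.3.3 under Python 3.11.15.

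All ERBB genes were named. In each list other than those of cell type markers, up to 4 called genes with the largest changes per comparison were named. Others singled out in the text, marker genes among them, were picked after their values were seen, as were the averaged contrasts. The 3 genes most correlated with each called ERBB gene were named too. The genes and lists were chosen with earlier results of these data known. GRB7, ETV4, ESR1 and GATA3 each stand in 2 lists, and BTC is also among the chromosome 4 neighbours. Alternatives were another background removal, normalization, floor, filter, probe choice, prior, set of groups, a replicate block and leaving out each array.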

Additional observations from a re-analysis of the deposited data

How the results depend on the processing

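The counts of ERBB genes called stayed within 1.5 times in each comparison under 10 alternatives of the processing and 12 that left out 1 array. The exceptions were the contrasts averaged over both settings, added after seeing the data, which use 6 arrays a side: 5 genes for dox (against 3 for dox alone; BTC, one of them, entered the test through the dox groups), and 1 for DHT (against 0 for DHT against vehicle and on top of dox). Leaving out 1 array gave 3 genes for dox against vehicle, 3 to 4 for dox on top of DHT and 3 to 4 for DHT + dox against vehicle, where BTC was called without vehicle replicate 2 (0.26, adjusted p = 0.0374), and 0 for the other comparisons. ERBB2 ranged from -1.27 to -1.10 for dox against vehicle and TGFA from 0.87 to 1.35. Changes not called in either setting turned sign, and the cause was not tested. With the mean of a gene's probes, EGFR became -0.0033 for dox against vehicle and ERBB3 0.021 for DHT against vehicle. In the averaged contrasts, EGFR was 0.028 for dox on top of DHT, and BTC -0.027 and EREG 0.00046 for DHT on top of dox. Leaving out 1 array, EREG ran from -0.061 to 0.094 for DHT, -0.0079 to 0.15 for DHT + dox against vehicle, -0.067 to 0.029 for DHT on top of dox, -0.014 to 0.1 for dox on top of DHT and -0.11 to 0.042 for the interaction. HBEGF ran from -0.0062 to 0.057 for DHT on top of dox and -0.055 to 0.02 for the interaction, TGFA from -0.026 to 0.16 and -0.17 to 0.039, ERBB2 from -0.088 to 0.041 for the interaction, and ERBB3 from -0.093 to 0.031 for DHT. The fit of only the groups compared gives no separate interaction. Arrays with the same replicate number did not deviate together (1 of 18 pairs over 0.1, r from -0.121 to 0.208; 2 of 12 arrays correlated best with their own number). With the number as a replicate block, 3 genes were called for dox against vehicle, 4 for dox on top of DHT, 3 for DHT + dox against vehicle and 0 elsewhere, and ERBB2 gave -1.16 and -1.17. Probes near the limit (EGFR, HBEGF, EREG, BTC) can show only small falls, and background holds back their rises as well.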
